A study of Mus musculus with 4 samples.

Results

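Antimicrobial protein genes of the skin, 5 beta-defensins (Defb1, Defb3, Defb4, Defb6 and Defb14) together with Slpi, Lcn2 and Pglyrp1, were followed in the epidermis of newborn mice that lack Skiv2l in keratinocytes. They were picked by gene name, with earlier results of these data known, and they make up 8 of the 54752 genes in each table. RNA came from 4 C57BL/6 pups at postnatal day 0, 2 of them Skiv2l fl/fl K14-Cre (Skiv2lf/fl;K14-Cre in the labels, knockout from here on) and 2 of them littermates called Skiv2l ctl (control from here on). Skiv2l encodes the helicase that feeds RNA to the cytoplasmic RNA exosome, and K14-Cre expresses Cre recombinase from the keratin 14 promoter, so both floxed alleles are removed in keratinocytes from before birth and other cells of the epidermis keep them. The controls pool pups with both alleles floxed and no Cre (Skiv2l fl/fl), pups with 1 floxed allele (Skiv2l fl/+) and pups with 1 floxed allele plus Cre (Skiv2l fl/+ K14-Cre), so all of these pups carry at least 1 floxed allele, and which control genotype each pup had, and whether it carried Cre, is not given per sample. The question put to the data was which of the 8 genes differed between the genotypes, by how much, and how their gene families, inducers and partners behaved beside them.

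Antimicrobial peptides and proteins are a chemical part of the skin barrier. Beta-defensins are short cationic peptides, folded by disulfide bonds, that damage microbial membranes and can also attract immune cells. Some are made by epithelia without a stimulus, while others are switched on by cytokines, microbes or wounding. Slpi is a secreted inhibitor of neutrophil elastase and related serine proteases and carries WAP domains, Lcn2 is a lipocalin that withholds iron from bacteria by binding their siderophores, and Pglyrp1 is a peptidoglycan recognition protein best known from neutrophil granules.

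Of the 8 genes, 7 were higher in knockout than in control epidermis and 0 were lower at an adjusted p under 0.05, and Pglyrp1 did not pass the test. At an unadjusted p under 0.05 by limma, 0 were lower as well. Over all 13609 protein-coding genes tested, 8.99% were called higher and 25.4% lower, 34.4% in all. Since the 8 genes were chosen with earlier results of these data known, their count beside these shares is a description. Genes were tested with limma on log2(FPKM + 1), p-values were adjusted over all tested genes by Benjamini-Hochberg, and FPKM is the number of fragments scaled to transcript length and library size. All 8 genes passed the filter of an FPKM above 0.5 in at least 1 library, but 5 of them (Defb3, Defb4, Defb6, Defb14 and Lcn2) passed it only through the knockout libraries and so had to differ in that direction. In bulk RNA, more cells that express a gene and more RNA per cell cannot be told apart.

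The targeted gene and the makeup of the samples were read first. Skiv2l (chromosome 17 of GRCm38, 34839228 to 34850210, minus strand) had an FPKM of 19.3 and 19.1 in the controls and of 10.8 and 8.55 in the knockout libraries. It was lower by limma (adjusted p = 0.00368), but this call was lost without control replicate 1 (adjusted p = 0.0562) and without replicate 2 (adjusted p = 0.0547). The epidermal keratins that define the labelled tissue were abundant in every library, and the summed FPKM of 6 keratinocyte markers was 25841 and 27389 in controls and 23983 and 27336 in knockout. The ratio of coverage to FPKM, which gives the aligned gigabases under the usual definition of these units, lay between 5.843 and 6.274, so the 4 libraries had similar depth. Nothing more is stated about replicates than that they are different pups, so each p-value rests on 2 pups per genotype. In limma the spread of a gene between pups is drawn toward a trend over all tested genes, so it is not that gene's own spread alone.

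The 5 beta-defensins are introduced by their coding sequences, because their likeness decides how cleanly their reads can be assigned and because the cysteine codons show the family. The sequences run from start to stop codon, from the GENCODE M21 transcripts, and in-frame cysteine codons are in capitals.
Defb1: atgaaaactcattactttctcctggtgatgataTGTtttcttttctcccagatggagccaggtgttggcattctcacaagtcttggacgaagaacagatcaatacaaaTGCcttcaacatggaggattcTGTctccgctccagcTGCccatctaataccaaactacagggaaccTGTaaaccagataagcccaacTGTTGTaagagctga
Defb3: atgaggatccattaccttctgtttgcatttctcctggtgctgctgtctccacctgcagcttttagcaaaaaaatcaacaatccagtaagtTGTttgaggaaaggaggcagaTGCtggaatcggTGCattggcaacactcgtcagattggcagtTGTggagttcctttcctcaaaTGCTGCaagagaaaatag
Defb4: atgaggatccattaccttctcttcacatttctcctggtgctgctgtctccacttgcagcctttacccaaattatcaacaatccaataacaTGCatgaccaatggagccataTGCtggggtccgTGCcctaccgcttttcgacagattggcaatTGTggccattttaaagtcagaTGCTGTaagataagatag
Defb6: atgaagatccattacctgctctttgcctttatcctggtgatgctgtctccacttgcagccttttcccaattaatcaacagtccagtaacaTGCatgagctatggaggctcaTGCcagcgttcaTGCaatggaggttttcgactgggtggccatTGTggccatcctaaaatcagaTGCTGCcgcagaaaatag
Defb14: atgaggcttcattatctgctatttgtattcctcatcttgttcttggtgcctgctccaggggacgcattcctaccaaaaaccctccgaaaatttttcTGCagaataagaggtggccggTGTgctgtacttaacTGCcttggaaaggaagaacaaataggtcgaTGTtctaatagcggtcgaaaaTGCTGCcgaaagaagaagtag
Defb3, Defb4, Defb6 and Defb14 each have 6 cysteine codons, and Defb1 has 7, the first of them near the start of the reading frame. In Defb3, Defb4 and Defb6 the reading frame has the same length, 192 bases, and the cysteine codons sit at the same places. Each of the 5 genes has a single annotated transcript of 2 exons. In global alignments, Defb4 and Defb6 were identical at 78.6% of alignment columns, Defb3 and Defb4 at 76.0% and Defb3 and Defb6 at 71.9%, whereas the 7 pairs with Defb1 or Defb14 lay between 48.1% and 57.8%. In spite of this likeness, none of the 50-base stretches of the Defb1, Defb3, Defb6 and Defb14 transcripts occurred in another annotated transcript. For Defb4, 23 of 405 stretches (5.68%) also occurred in Defb8, which was listed at 0 in all 4 libraries. No exon of another annotated gene overlapped the exons of the 5 beta-defensins, so the strandedness of the counting, which is not given in the sources used here, has no annotated antisense partner to act on.

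Defb1 was the only beta-defensin with an appreciable level in control epidermis. The protein is the classical constitutive epithelial beta-defensin. Defb1 (chromosome 8, 21776599 to 21795185, plus strand) had an FPKM of 20.8 and 19.4 in controls and of 70.1 and 56.8 in knockout. Both knockout libraries were above both controls, as were those of 18.2% of all tested genes, while 55.3% had both knockout libraries below both controls. The ratio of the means was 3.16, and the log2 fold change was 1.60 (SE 0.12, limma adjusted p = 0.000551), which ranked 191 from the highest of 13609 genes.

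Defb4, an inducible epithelial beta-defensin, showed the largest difference among the 5. Its FPKM (chromosome 8, 19198706 to 19201545, plus strand) was 0.101 and 0 in controls and 30.4 and 24.5 in knockout. The groups were far apart and the controls were at the limit of what these libraries hold. In aligned bases, obtained as coverage times transcript length, the controls held 279 and 0 bases of Defb4 and the knockout libraries 80520 and 66000. Among genes of low coverage with 1 transcript, totals of 200 and of 100 bases were frequent, so 279 bases may stand for very few fragments. The log2 fold change was 4.75 (SE 0.14, limma adjusted p = 2.8e-05) and ranked 13 from the highest.

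Defb14, the mouse counterpart of a broadly active, salt-tolerant human beta-defensin, followed Defb4 in log2 fold change at a pseudocount of 1 on FPKM. At a pseudocount of 0.1 it lay below Defb3 (4.05 against 5.65), and on TPM it did too (3.42 against 3.81). Its FPKM (chromosome 8, 19194357 to 19195212, plus strand) was 0.435 and 0.339 in controls and 7.30 and 8.56 in knockout. The groups did not overlap, and 540 and 434 aligned bases stood behind the control values against 8696 and 10354. The log2 fold change was 2.68 (SE 0.13, limma adjusted p = 0.00016). The annotated transcript of Defb14 holds only the 204 coding bases, so reads from untranslated parts are not in its FPKM.

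Defb3, another inducible beta-defensin of epithelia, was listed at 0 in the control pups and had an FPKM of 4.32 and 5.57 in knockout (chromosome 8, 19293360 to 19295291, plus strand). In aligned bases these were 6948 and 9089 against none. Because a library listed at 0 gives no ratio, only the difference on the log2(FPKM + 1) scale is given, which was 2.56 (SE 0.15, limma adjusted p = 0.000292).

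Defb6 had the lowest level of the 5 in knockout epidermis. Its FPKM (chromosome 8, 19225478 to 19228209, plus strand) was 0.102 and 0.0942 in controls and 3.05 and 3.10 in knockout. The controls held 200 and 191 aligned bases and the knockout libraries 5754 and 5937. The groups did not overlap, and the log2 fold change was 1.89 (SE 0.13, limma adjusted p = 0.000438).

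Sums over the beta-defensins show the makeup of this RNA in each genotype. The summed FPKM of the 5 genes was 21.4 and 19.8 in controls and 115 and 98.5 in knockout. Defb1 made up 97.0% and 97.8% of this sum in the controls but 60.9% and 57.6% in knockout epidermis. The other 4 genes together had a summed FPKM of 0.638 and 0.433 in controls and of 45.0 and 41.7 in knockouts, most of it from Defb4. These sums are descriptions and were not tested.

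**Figure D1:**
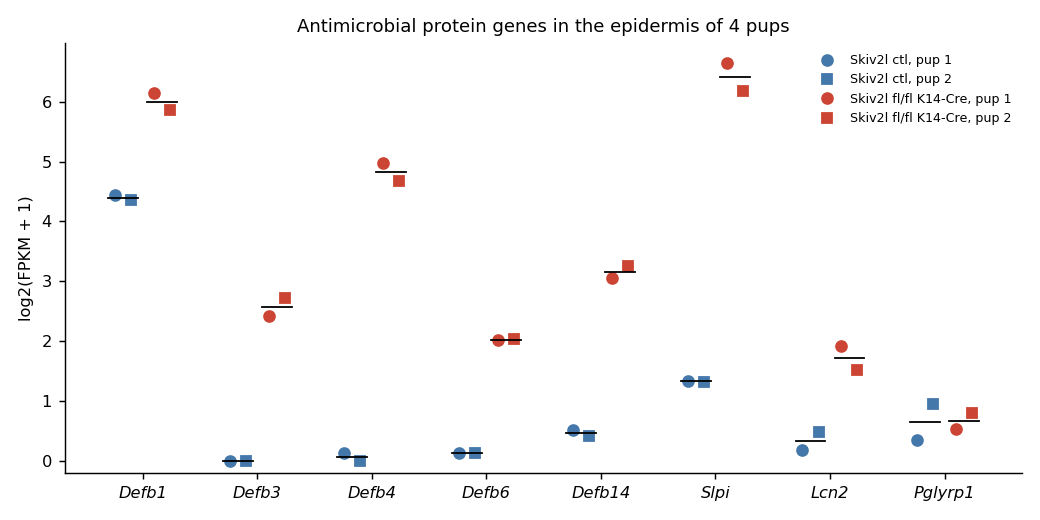
FPKM of the 8 antimicrobial protein genes, as log2(FPKM + 1) on the y axis, in each of 4 libraries (blue, control pups; red, knockout pups; circles, pup 1; squares, pup 2; black lines, mean of 2 pups). Red points lie above blue points for every gene but Pglyrp1, and only Defb1 and Slpi are above 1 on this scale in both controls.

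Slpi had the largest log2 fold change of the 8 genes at a pseudocount of 1 on FPKM, but not at a pseudocount of 0.1 (5.71, below 7.59 for Defb4) or on TPM (5.45, below 6.02 for Defb4). Its FPKM (chromosome 2, 164354070 to 164389095, minus strand) was 1.53 and 1.496 in controls and 99.6 and 71.3 in knockout. The controls were nearly equal, the knockout pups were well apart from each other, and the groups did not come near one another. The ratio of the means was 56.5, and the log2 fold change was 5.09 (SE 0.16, limma adjusted p = 3.12e-05), which ranked 10 from the highest of all tested genes. None of the 50-base stretches of the 3 Slpi transcripts occurred in another annotated transcript.

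Lcn2 stayed at a low level in both genotypes although it differed between them. Its FPKM (chromosome 2, 32384633 to 32388252, minus strand) was 0.137 and 0.390 in controls and 2.79 and 1.86 in knockout. The groups did not overlap, but pups of the same genotype were less alike than for Defb1 or Defb6. The log2 fold change was 1.39 (SE 0.19, limma adjusted p = 0.00407). Lcn2 was the member whose call was nearest to the threshold, and with no filter on low FPKM it was lost (adjusted p = 0.0765).

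Pglyrp1 was the exception. Its FPKM (chromosome 7, 18871331 to 18890459, plus strand) was 0.278 and 0.939 in controls and 0.452 and 0.746 in knockout, so the groups overlapped. Of the 50-base stretches of its 4 transcripts, 2.26% occurred in other annotated genes. The log2 fold change was 0.02 (SE 0.23, limma adjusted p = 0.962), with a 95% confidence interval from -0.553 to 0.586. Its sign turned to -0.28 without control replicate 1 and to -0.12 without knockout replicate 2. A change of either sign within that interval could not be detected at this level with 2 pups per genotype.

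All 8 differences stand against a shift of the whole table, since the log2 fold changes of all tested genes had a median of -0.20. Relative to that median the 7 genes called higher lay between 1.59 (Lcn2) and 5.28 (Slpi), and Pglyrp1 at 0.22. With the libraries scaled to the same median, that median was -0.03 and the split of called genes changed from 1223 higher and 3455 lower to 1894 higher and 1623 lower, and quantile normalization gave 1683 and 1917. The counts of called genes also rested on both controls: without control replicate 1 they were 497 and 805, and without replicate 2 they were 542 and 810. The same 7 genes were called under each of these scalings and without each library in turn. Of these, Defb3, Defb4, Defb6, Defb14 and Lcn2 passed the filter only through the knockout libraries, so their direction was set in advance. The size of the difference on the log scale, in contrast, depended on the pseudocount for genes near 0 in the controls. With a pseudocount of 0.1 it was 7.59 for Defb4 and 5.65 for Defb3, but 1.65 for Defb1.

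**Figure D2:**
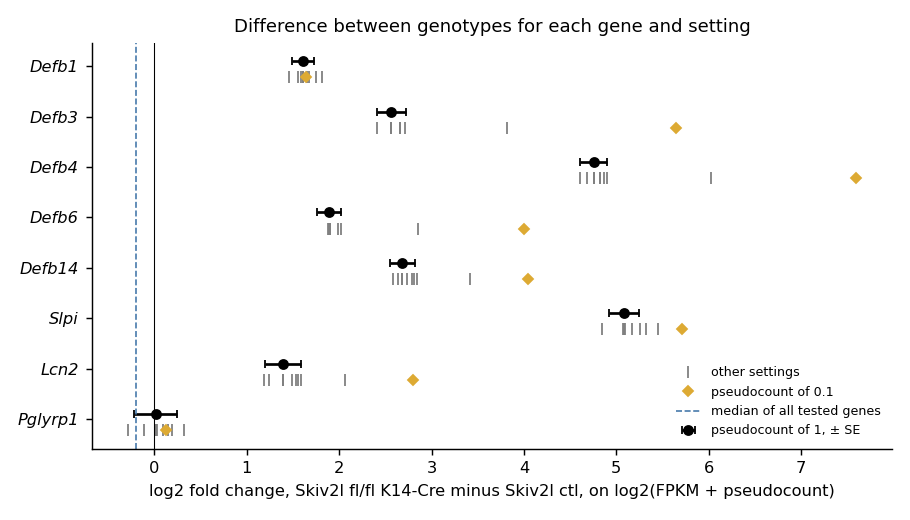
Log2 fold change (x axis, log2(FPKM + pseudocount), knockout minus control) of the 8 genes (y axis), with black points and bars for the estimate ± SE at a pseudocount of 1, grey ticks for the other settings and yellow diamonds for a pseudocount of 0.1. Only the ticks of Pglyrp1 reach across 0, and the diamonds of Defb3 and Defb4 lie furthest from their black points.

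By FPKM, which is scaled to annotated transcript length, the order in knockout epidermis was Slpi, Defb1, Defb4, Defb14, Defb3, Defb6, Lcn2 and Pglyrp1. Among the beta-defensins these lengths run from 204 bases for Defb14, coding bases only, to 872 for Defb1. How far the annotated lengths shape the order was not tested. The ranges of neighbours in this order did not overlap between the 2 libraries. In control epidermis Defb1 was first and Slpi second, with no overlap. Below them Pglyrp1, Defb14 and Lcn2 could not be ordered, since their ranges overlapped. At the bottom, the range of Defb4 overlapped those of both Defb6 and Defb3, so Defb4 could not be placed, and Defb6 was above Defb3, which was listed at 0 in both libraries.

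Position along the chromosome set Defb1 apart from the other 4. Defb14, Defb4, Defb6 and Defb3 lie in this order within 100.9 kb of chromosome 8, and Defb1 starts 2481 kb beyond the end of Defb3. Only genes named as defensins, defensin pseudogenes or Spag11 were counted here. From Defb14 to Defb3, both included, there were 7 such genes. Of these, 5 had an FPKM above 0.5 in at least 1 library, namely the 4 beta-defensins and the pseudogene Defa-ps12. Defb46 and Defb5, which lie between Defb6 and Defb3, were listed at 0 in all 4 libraries. The wider window from Defb38 to Defb7 had 18 genes with such names, and 12 of them were listed at 0 in all libraries. The expressed beta-defensins of this stretch were thus neighbours but not an unbroken row.

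**Figure D3:**
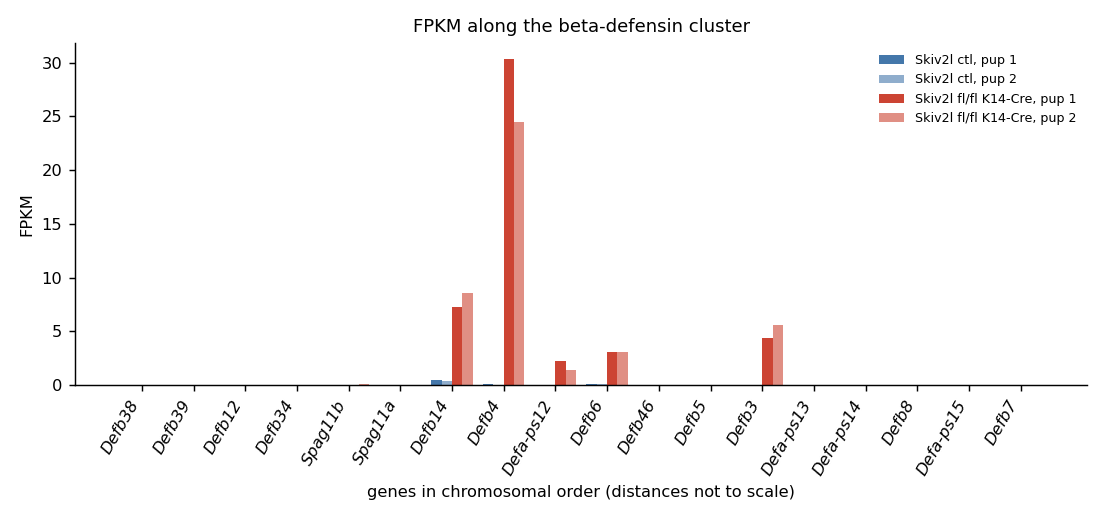
FPKM (y axis, linear from 0) of the 18 genes with defensin or Spag11 names from Defb38 to Defb7, in chromosomal order (x axis, not to scale). Bars are single libraries (blue, control pups; red, knockout pups; lighter shades, pup 2). Defb4 stands highest at 30.4 and 24.5, and none of the plotted genes outside the stretch from Defb14 to Defb3 has a visible bar.

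Promoter sequences were read for Defb3 and Defb6 because these genes differ together and their start regions are alike. RefSeq windows of 250 bases before to 50 after the start, on GRCm38.p6, matched 5 of the 8 genes (Defb3, Defb6, Lcn2, Slpi and Pglyrp1). Defb1, Defb4 and Defb14 had no entry. The 250 bases before the start are shown 5′ to 3′, with capitals for matches to any of the motifs searched.
Defb3 (chr8:19293111-19293360, + strand): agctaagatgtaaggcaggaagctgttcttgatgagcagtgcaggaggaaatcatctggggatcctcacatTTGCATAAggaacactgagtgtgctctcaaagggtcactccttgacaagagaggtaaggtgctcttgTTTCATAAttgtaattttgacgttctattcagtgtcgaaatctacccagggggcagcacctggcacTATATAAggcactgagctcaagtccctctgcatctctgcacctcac
Defb6 (chr8:19225228-19225477, + strand): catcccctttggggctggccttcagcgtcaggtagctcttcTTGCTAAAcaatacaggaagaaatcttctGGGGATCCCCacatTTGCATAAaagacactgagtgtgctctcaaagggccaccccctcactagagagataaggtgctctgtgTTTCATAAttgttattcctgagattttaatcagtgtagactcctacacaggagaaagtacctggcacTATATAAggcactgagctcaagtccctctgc
Over the windows of 300 bases, Defb3 and Defb6 were identical at 75.6% of alignment columns. The other 9 pairs among the 5 genes, each with Lcn2, Slpi or Pglyrp1 in it, lay between 46.0% and 51.5%. Since the pair was shown for its likeness and is the only pair of beta-defensins with windows, this contrast was set by the choice of genes. A part of these sequences in the differences between genotypes was not tested. The motifs searched on both strands were a TATA box spelled TATATAA, the shorter box spelled TATAAA, a C/EBP-type motif (TTNNGNAA), an AP-1 motif (TGANTCA), a STAT-type motif (TTCNNNGAA) and the NF-kappaB motif. TATATAA was present in Defb3, from 46 to 40 bases before the start, and in Defb6, from 31 to 25 bases before it, and in 3.24% of all 32851 windows of this length. The C/EBP-type motif matched in Defb3, Defb6, Slpi and Lcn2 but also in 40.7% of all windows. The NF-kappaB motif matched in Defb6 and in Pglyrp1, and in 4.51% of all windows. The TATAAA, AP-1 and STAT-type motifs, which occurred in 13.6%, 7.81% and 8.3% of all windows, had no match in the 5 windows. No matches overlapped each other except the NF-kappaB match of Defb6, which reads the same on both strands. A match describes letters and not a bound site.

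The other genes of the same families were largely silent. The tables hold 43 genes named Defb with a number, of which 36 were listed at 0 in all libraries, and the 5 above the filter were the 5 described here. Defb2 and Defb40 had an FPKM above 0 but under 0.1 in a single library each. Of 10 lipocalin genes named Lcn, 8 were listed at 0 in all libraries and Lcn2 alone passed the filter.

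The relatives of Slpi with WAP domains did not move in 1 direction. Of 18 Wfdc genes, 4 were tested. Wfdc12 had an FPKM of 0.210 and 0.398 in controls and of 7.25 and 11.4 in knockout (log2 fold change 2.96, limma adjusted p = 0.000494), and it passed the filter only through the knockout libraries, so it could differ in that direction alone. Wfdc21 went the opposite way, with 88.0 and 102 in controls and 9.57 and 6.47 in knockout. Its log2 fold change of -3.43 (SE 0.17, limma adjusted p = 0.000169) was the lowest of all 13609 genes tested on this scale. In control epidermis Wfdc21 was thus far above Slpi, while in knockout epidermis Slpi was above Wfdc21 in both libraries. Wfdc5, with 29.0 and 29.5 against 37.3 and 40.8, was called higher (limma adjusted p = 0.017), but not without control replicate 1 (adjusted p = 0.116) or replicate 2 (adjusted p = 0.103). Wfdc2, with 1.47 and 1.77 against 1.45 and 0.892, did not pass the test (adjusted p = 0.243).

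The relatives of Pglyrp1 differed where Pglyrp1 did not pass the test. Pglyrp3 and Pglyrp4 are the peptidoglycan recognition proteins of epithelia, and both kill or inhibit bacteria directly. Pglyrp3 had an FPKM of 6.93 and 7.54 in controls and of 28.2 and 19.9 in knockout (log2 fold change 1.59, SE 0.17, limma adjusted p = 0.0016). Pglyrp4 had 11.3 and 10.4 against 40.4 and 34.6 (log2 fold change 1.70, SE 0.11, limma adjusted p = 0.000346). Pglyrp2, a secreted amidase, stayed under the filter, with a highest value of 0.268. In each library Pglyrp3 and Pglyrp4 were above Pglyrp1. The difference between the changes of Pglyrp1 and its relatives was not tested.

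**Figure D4:**
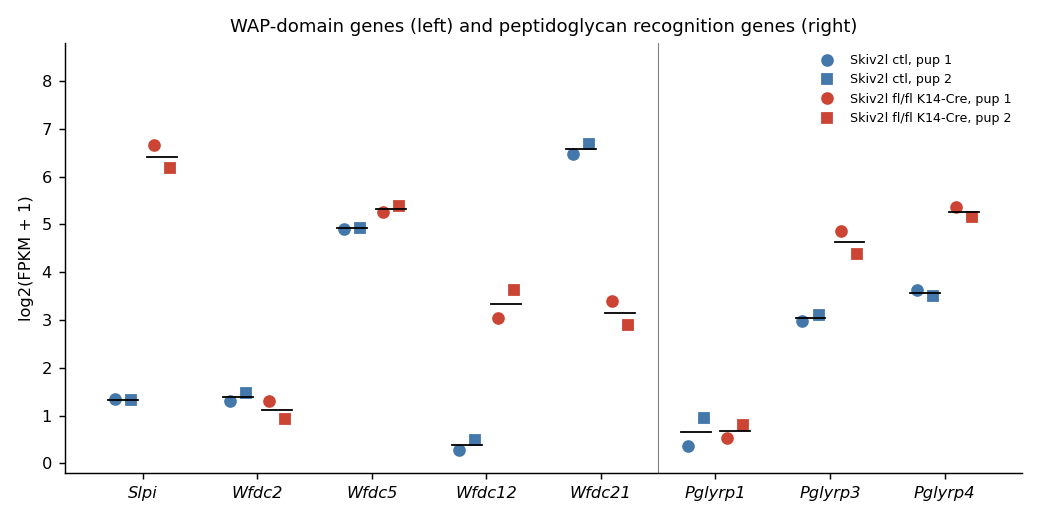
Log2(FPKM + 1) (y axis) of Slpi and 4 Wfdc genes (left) and of 3 Pglyrp genes (right) in each library (blue, control pups; red, knockout pups; black lines, mean of 2 pups). Slpi and Wfdc21 change places between the genotypes, and Pglyrp3 and Pglyrp4 rise while the points of Pglyrp1 overlap.

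Neutrophils are known to make Lcn2, Slpi and Pglyrp1 as well, so markers of other cells were set beside these genes. Of 14 neutrophil markers, 4 were tested and 3 were called higher, S100a8, S100a9 and the chemokine receptor Cxcr2, and the summed FPKM was 5.76 and 8.11 in controls against 1760 and 1780 in knockout. S100a8 and S100a9 are also made by keratinocytes. Without these 3 genes, which were left out because they were called higher, the other 11 markers summed to 4.33 and 5.02 in controls. In knockout they summed to 4.76 and 4.30. Most of these sums was Itgam alone, with 3.47 and 3.55 in controls and 3.39 and 3.30 in knockout. Among these 11 markers, Elane and Ly6g were listed at 0 in all 4 libraries, Mpo was at 0.0615 at most and Camp at 0.372 at most. Cxcr2 rose from 0.127 and 0.208 to 6.51 and 5.56 (limma adjusted p = 0.000202), and it passed the filter only through the knockout libraries. The part of neutrophils in the values of Lcn2 and Slpi was not tested.

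Markers of the other cell types were lower in sum, overlapped between the genotypes or, for sebocytes, were higher in sum. Over all tested genes, 8.99% were called higher and 25.4% lower, beside which the few calls per cell type are to be read. The 8 macrophage or monocyte markers summed to 21.4 and 29.5 against 20.9 and 16.3, with 1 of 6 tested called lower. Mucosal and airway epithelium, where Slpi and Lcn2 are also made, had summed markers of 2.85 and 7.68 against 3.88 and 4.24, with Bpifa1 at 0 in all libraries. Langerhans cell markers summed to 68.0 and 73.1 against 50.1 and 49.0, with 2 of 4 tested called lower. Most of that sum was Epcam (50.8 and 51.2 against 44.2 and 43.6), which was not called, and Cd207 was at 0.0417 at most. T cell markers summed to 5.70 and 6.28 against 3.50 and 3.50, with 1 of 3 called lower. Fibroblast markers summed to 61.3 and 69.0 against 21.9 and 25.0, with 2 of 5 called lower, and erythroid markers to 134 and 125 against 62.0 and 80.7, with 4 of 5 called lower. Mast cell markers (7.30 and 7.83 against 7.29 and 6.63), melanocyte markers (47.5 and 54.4 against 50.6 and 63.5) and sebocyte markers (24.0 and 34.2 against 57.1 and 39.3) had 0, 1 and 1 genes called higher. Most of the mast cell sum was Kit (7.04 and 7.80 against 7.01 and 6.54). Skeletal muscle markers stayed under 1 in sum. Of the keratinocyte markers, Krt14 and Dsg3 were called higher and Krt1 lower. The part of these shifts in the values of the 8 genes was not tested.

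Beyond the 8 genes, a list of 38 other skin antimicrobial and host defence proteins had 19 tested, of which 12 were called higher, 3 lower and 4 neither. Their median log2 fold change was 1.27, beside -0.20 for all tested genes, and the share called was 78.9%, beside 34.4%. This list and those below were chosen with earlier results of these data known. A contrast with all tested genes may therefore have been set by the choice. The alarmins S100a8 (0.370 and 1.27 against 775 and 804) and S100a9 (0.928 and 1.61 against 974 and 965), which bind zinc and calcium, had the 2 highest log2 fold changes of all genes on this scale. S100a7a, a relative of human psoriasin, had 0.457 and 0.400 against 6.80 and 8.34 (limma adjusted p = 0.000208), and like Wfdc12 it passed the filter only through the knockout libraries. Duox1 and its maturation factor Duoxa1, which make hydrogen peroxide at epithelial surfaces, had log2 fold changes of 2.39 and 2.10 (limma adjusted p = 0.000465 and 8.82e-05). Rnase1, with 32.1 and 36.2 against 10.8 and 8.41, was among the 3 called lower (limma adjusted p = 0.000632). Of the rest, 5 genes, the Reg3 genes, Retnla and Itln1, were listed at 0 in all libraries, and the cathelicidin gene Camp stayed under the filter.

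Among 17 cytokines and growth factors that induce antimicrobial genes in keratinocytes, 11 were tested, of which 6 were called higher and 1 lower. The share called in this list, chosen with earlier results of these data known, was 63.6%, beside 34.4% over all tested genes. The log2 fold changes had a median of 0.85. The count of higher calls was 2 without control replicate 2, and the lower call, Tnf, was lost when any of the 4 libraries was left out. Il1f6, which encodes an interleukin of the IL-36 group, had an FPKM of 15.3 and 17.2 in controls and of 96.5 and 72.0 in knockout (log2 fold change 2.29, limma adjusted p = 0.000355). Il1f9 of the same group had 35.8 and 38.9 against 96.4 and 100.5 (log2 fold change 1.37, limma adjusted p = 0.000315). Il24 had 0.242 and 0.0979 against 4.34 and 2.15 (limma adjusted p = 0.0044), and its call was lost without control replicate 2 (adjusted p = 0.0574). Il24 too passed the filter only through the knockout libraries, and Tnf only through the controls, so each could differ in 1 direction alone. Areg, a ligand of the EGF receptor, had 3.60 and 1.42 against 17.5 and 7.20 (limma adjusted p = 0.0218), and its call was lost without control replicate 1, without replicate 2 and without knockout replicate 1 (adjusted p = 0.0636, 0.143 and 0.0619). Il17a, Il22, Il6 and Il20 were listed at 0 in all 4 libraries.

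Of 22 receptors and adaptors through which such signals reach these genes, 20 were tested, with 5 called higher, 3 lower and 12 neither. The share called was 40.0%, near the 34.4% over all tested genes, and the log2 fold changes had a median of 0.15. Il17ra, Il17rc and Traf3ip2, the receptor chains and adaptor for IL-17, were among the 12, with log2 fold changes of 0.19, -0.01 and -0.01. Nod2 and Nod1, sensors of peptidoglycan fragments, went opposite ways, with 2.69 and 3.05 against 5.64 and 8.42 for Nod2 and 22.2 and 21.3 against 13.1 and 13.2 for Nod1. Tlr2 had 3.12 and 3.69 against 1.41 and 1.34, and the vitamin D receptor gene Vdr 8.21 and 10.4 against 17.0 and 18.3. These calls rested on both controls: without control replicate 1 the counts were 0 higher and 1 lower and Nod2, Nod1 and Vdr were lost (adjusted p = 0.0929, 0.0519 and 0.0508), and without replicate 2 they were 2 and 1 and Nod2 and Tlr2 were lost (adjusted p = 0.0743 and 0.0569).

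All 18 transcription factors on the list were tested, with 7 called higher, 3 lower and 8 neither. The share called in this list, chosen with earlier results of these data known, was 55.6%, beside 34.4% over all tested genes. The log2 fold changes had a median of 0.15. Nfkbiz, a nuclear cofactor needed for the induction of several antimicrobial genes, had an FPKM of 10.001 and 7.93 in controls and of 35.7 and 31.9 in knockout (log2 fold change 1.81, limma adjusted p = 0.000471). Hif1a had 27.5 and 25.3 against 62.2 and 64.2 (log2 fold change 1.23, limma adjusted p = 0.00043). Pou2f3, a factor of differentiating keratinocytes, fell from 98.0 and 98.8 to 39.9 and 42.3 (log2 fold change -1.24, limma adjusted p = 0.000346). Junb had 107 and 71.9 against 136 and 261, and its call (limma adjusted p = 0.0435) was lost without control replicate 1, without replicate 2 and without knockout replicate 2 (adjusted p = 0.102, 0.236 and 0.117). Without control replicate 1 or replicate 2 there were 3 higher calls and 1 lower call.

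Genes around the function of the products were mixed. For iron and siderophores around Lcn2, 10 of 15 genes were tested, with 2 called higher, 4 lower and 4 neither. These counts are to be read beside the 8.99% called higher and 25.4% lower over all tested genes, 34.4% in all. The list was chosen with earlier results of these data known. Its log2 fold changes had a median of -0.31. Slc22a17, described as a cell surface receptor for Lcn2, had 9.99 and 8.14 against 3.90 and 3.86 (limma adjusted p = 0.00262), and the iron exporter Slc40a1 had 20.6 and 26.0 against 8.03 and 6.95 (limma adjusted p = 0.00107). The ferritin chain Ftl1 had 133 and 154 against 102 and 90.2 (limma adjusted p = 0.0119), lost without control replicate 2 (adjusted p = 0.0933). The metalloreductase Steap4 had 1.32 and 1.92 against 4.34 and 3.27 (limma adjusted p = 0.014), lost without control replicate 1 (adjusted p = 0.109) or replicate 2 (adjusted p = 0.0568). The higher calls of this list were 0 without either control and 1 without knockout replicate 2, and the lower calls were 2 without control replicate 2.

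For receptors, protease targets and partners of the products, 10 of 18 genes were tested, with 4 called higher, 1 lower and 5 neither. Over all tested genes, 8.99% were called higher and 25.4% lower, 34.4% in all. This list too was chosen with earlier results of these data known. Its log2 fold changes had a median of 0.25. Without control replicate 1 or replicate 2 the higher calls were 2. Ccr6, the chemokine receptor that beta-defensins can engage, and Elane, the main protease target of Slpi, were listed at 0 in all libraries. Plscr1, a scramblase described as a binding partner of Slpi, had 2.37 and 2.74 against 0.370 and 0.436 (log2 fold change -1.34, limma adjusted p = 0.00152). Spink5, an inhibitor of epidermal kallikreins, had 159 and 180 against 382 and 327 (limma adjusted p = 0.00166), and the kallikrein Klk7 had 249 and 250 against 436 and 408 (limma adjusted p = 0.00185). Ccl20, the other ligand of Ccr6, had 0 and 0.276 against 1.63 and 0.905 (limma adjusted p = 0.0181), lost without control replicate 1, replicate 2 or knockout replicate 1 (adjusted p = 0.107, 0.0581 and 0.0635). Ccl20 passed the filter only through the knockout libraries, and Plscr1 only through the controls, so each could differ in 1 direction alone.

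**Figure D5:**
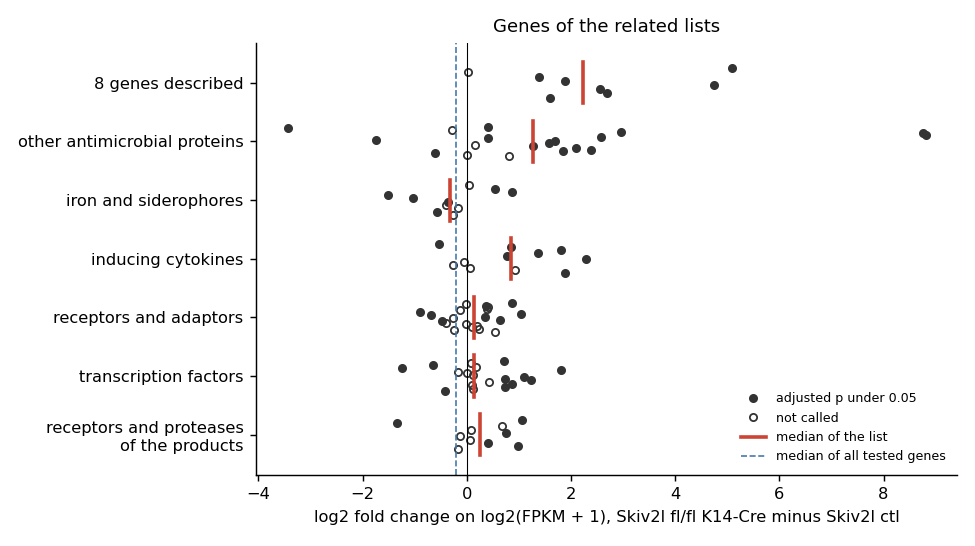
Log2 fold change on log2(FPKM + 1) (x axis) of every tested gene in the 8-gene set and in 6 related lists (y axis), with filled points for an adjusted p under 0.05, open points for the rest, red lines for list medians and a dashed line for the median of all tested genes at -0.20. The 8 genes and the other antimicrobial proteins have medians of 2.23 and 1.27, and the remaining lists lie between -0.31 and 0.85. All were chosen with earlier results of these data known. Of the 8 genes, 5 passed the filter only through the knockout libraries and had to differ in that direction. The same holds for Wfdc12 and S100a7a among the other antimicrobial proteins.

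The genes whose values over the 4 libraries were nearest to each member, by Euclidean distance on log2(FPKM + 1), were read from all tested genes. With 2 genotypes and 4 libraries such likeness mostly reflects a similar level and a similar difference. Nearest to Defb1 were Ptges, Xdh and Hif1a, and nearest to Slpi were Il33, Lce3b and Fabp4. Defb14 had the closest match, S100a7a at a distance of 0.116, followed by Pla2g4d and Sprr2k. Defb4 was nearest to Tmem45b, Aldh1a3 and Epgn, Defb3 to Hmx1, Adamts5 and Slc7a3, and Defb6 to Prkcq, Tspan8 and Gml. Lcn2 was nearest to Tmprss11a, Il20ra and Rnf207, and Pglyrp1 to Heyl, Entpd1 and Osr2.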

How the data were processed

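Total RNA from the epidermis of 4 pups at postnatal day 0, 2 per genotype, was sequenced, and samples were grouped by the genotype in the labels. The authors processed reads with the Astrocyte RNASeq workflow and deposited 1 table per library on GRCm38 with 3 values per gene. The FPKM deposited by the authors is normalized to the length of the transcript and the size of the library, the TPM deposited by the authors sums to the same total in each library, and the coverage signal, also deposited, gives mean depth per base. The aligner and strandedness are not given in the sources used here.

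FPKM was summed per gene identifier. Of 54752 genes, 54029 matched GENCODE M21 coordinates and 21921 were protein-coding, and 13609 of these passed the filter of the study's methods, an FPKM over 0.5 in 1 library or more. Their log2(FPKM + 1) values were fitted in limma 3.58.1 under R 4.3.3 (lmFit, eBayes with a trend, two-sided test, Benjamini-Hochberg adjustment, threshold 0.05), after a test on simulated data. A pseudocount of 1 understates changes of low genes. The genes and lists were chosen with earlier results of these data known. Besides the 8 genes and their families, up to 4 called genes with the largest change were named per list, and genes named beyond this were chosen after their values were seen. Sequences were aligned with Biopython 1.88. Il36a, Il36b and Il36g stand in the tables under older symbols (Il1f6, Il1f8 and Il1f9). Counting intervals could not be given without counts, and 2 pups per genotype limit precision. An exact permutation test of 2 against 2 cannot give a two-sided p below 0.333. Alternatives were another filter (FPKM above 1 in 2 libraries or more), no filter, a pseudocount of 0.1, TPM, median scaling, quantile normalization, a replicate block, eBayes without a trend, all annotated genes, and leaving out each library.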

Additional observations from a re-analysis of the deposited data

Results flagged for a closer look

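Defa-ps12 is annotated as an unprocessed pseudogene of the alpha-defensin family and lies between Defb4 and Defb6, and as a non-coding gene it took no part in the tests above. It drew attention because a signal appeared there that was absent from the controls. It was listed at 0 in the control pups, and the FPKM was 2.21 and 1.38 in the knockouts, with a mean of 1.795 over those 2 libraries. Behind these values stood 2488 and 1584 aligned bases over a transcript of 193 bases. In a fit over all 19572 annotated genes above the filter, its log2 fold change was 1.47 (SE 0.19). No p-value is given, since it was picked for being present in knockout and absent from the controls and passed the filter only through the knockout libraries. None of the 50-base stretches of its transcript occurred in another annotated transcript. Of the 39 genes of the alpha-defensin family it was the only one above 0 in any library. Whether the signal comes from a transcript of its own or from RNA of its neighbours was not tested.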

How the results depend on the processing

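Among the 8 genes, 7 were called higher under every alternative except without a filter, where 6 were, since Lcn2 was lost (adjusted p = 0.0765), and 0 were called lower under any of them (limma). The log2 fold change of Pglyrp1 ran from -0.28 (without control replicate 1) to 0.32 (without control replicate 2) over the libraries left out and was -0.12 without knockout replicate 2, and it gave no value under the filter of FPKM above 1 in at least 2 libraries. Over all genes, 475 were called higher and 927 lower without a filter, 1894 and 1623 under median scaling, and 1917 lower under quantile normalization. Leaving out 1 library at a time gave 497 to 1146 higher and 805 to 3135 lower, with the low ends from leaving out a control. The cause of these shifts was not tested. With the replicate number as a block (replicate block), 1264 genes were higher and 3393 lower and 7 of the 8 genes were called. The deviations of same-numbered pups had a correlation of -0.08 over 13609 genes, so no shared deviation was seen. Whether the numbers pair the pups is not given in the labels. Depth limits the control values of Defb3, Defb4, Defb6 and Defb14, which rest on at most 540 aligned bases. These genes and Lcn2 passed the filter only through the knockout libraries, so wherever a filter was used their direction was set in advance. Of the genes outside the 8 that were followed singly over the alternatives, Junb lost its call most often. The lower call among the cytokines, Tnf, was lost under more alternatives than that of Junb. Without a filter Slc40a1, Slc22a17, Steap4, Ftl1, Areg, Il24, Nod2, Tlr2, Vdr, Junb, Spink5, Ccl20, Pglyrp3, Wfdc5 and Skiv2l were no longer called.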
